A study of Mus musculus with 24 samples.

Results

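The regions described here were 3528 distal ARID1B peaks of the mouse cortex at E15.5 (embryonic day) that carry the TCF4 consensus, a 10-base E-box, near their summit. Among the distal ARID1B peaks, they were chosen only by the sequence around the summit. Of 71442 ARID1B peaks called at E15.5, 70709 lay on chromosomes 1 to 19, and 51752 of these were distal, meaning that they did not overlap the 2000 bp upstream of any annotated transcription start site (TSS). A distal peak was a member if the 200 bp of GRCm38 sequence centered on its summit held an exact match to the consensus on either strand. Members made up 6.82% of the distal peaks (95% Wilson interval 6.60% to 7.04%), and the other 48224 distal peaks were the comparison. The consensus, from the motif list of the study, allows 24 different 10-base words around the core CATCTG, which reads CAGATG on the other strand.

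The study mapped the binding of transcriptional regulators associated with autism spectrum disorder (ASD) in developing cortex by ChIP-seq, in which fragments bound by a protein are enriched with an antibody and sequenced. The lists analyzed here hold peaks of ARID1B, FOXP1, and TCF7L2 in cortex of wild-type mice at E15.5 and E18.5, 6 lists in all. Each list was taken to merge 2 ChIP libraries, called against input chromatin (2 input libraries for each regulator and stage), because the methods describe a final call on merged reads. The records, however, attach each list to replicate 1 of its group, and the lists do not say themselves whether they hold 1 library or 2. In either case no list gives the spread between replicates. For this reason no p-value is given. Intervals on shares, differences, and medians cover counting error only, and neighboring peaks are not independent. The cortex was taken whole, so that a peak does not say in which cell type it lay.

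ARID1B is a DNA-binding subunit of the BAF complex, which moves and evicts nucleosomes. FOXP1 is a forkhead transcription factor, and TCF7L2 is an HMG-box factor of the Wnt pathway. The sample labels call the third target TCF4, an old name of TCF7L2, and the study's antibody was raised against TCF7L2. It is a different protein from the TCF4 after which the consensus is named. That TCF4 is an E protein, a basic helix-loop-helix (bHLH) factor that binds E-boxes, short palindrome-like sites of the form CANNTG, as a dimer with itself or with a tissue-specific bHLH partner. In the cortex such partners include NEUROG2, NEUROD1, and NEUROD2, which drive progenitors to become neurons, whereas Id proteins bind E proteins and keep them off DNA. Many bHLH dimers accept the same letters, so the consensus does not tell them apart, and no bHLH factor was among the proteins assayed here.

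To show what these regions look like, the matches of 9 of the 10 highest members are printed first, each named by the nearest protein-coding TSS, with 20 bases on either side. Coordinates are of GRCm38, and the sequence is written 5′ to 3′ on the strand of the match, given in parentheses. Capitals mark the match.
Ebf1, chr11:44626192-44626241 (-): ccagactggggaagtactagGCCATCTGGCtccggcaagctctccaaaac
Aff3, chr1:38438543-38438592 (-): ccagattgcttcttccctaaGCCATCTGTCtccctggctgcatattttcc
Gm6657, chr12:78001932-78001981 (-): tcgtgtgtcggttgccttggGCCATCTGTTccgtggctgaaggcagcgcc
Pcdh18, chr3:49009327-49009376 (+): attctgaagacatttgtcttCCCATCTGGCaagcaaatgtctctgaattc
Pard3, chr8:127108081-127108130 (-): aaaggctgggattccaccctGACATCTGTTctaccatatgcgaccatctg
Etv1, chr12:39048577-39048626 (-): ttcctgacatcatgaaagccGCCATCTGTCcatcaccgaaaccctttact
Znrf4, chr17:56509871-56509920 (+): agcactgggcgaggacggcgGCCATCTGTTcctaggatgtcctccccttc
Col27a1, chr4:63291120-63291169 (-): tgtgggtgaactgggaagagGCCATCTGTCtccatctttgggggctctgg
Opalin, chr19:41101512-41101561 (+): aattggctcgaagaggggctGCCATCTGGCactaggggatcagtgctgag

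The height of a peak is given as its fold enrichment, the reads at the summit over the background of the list, as the authors' peak caller wrote it. The highest member lay in an intron of Ebf1, a transcription factor gene, 4.42 kb from a TSS, and was the third highest of all distal peaks. Its fold enrichment for ARID1B was 23.0 at E15.5 (95% Poisson interval 20.3 to 26.0, from 258 ChIP reads) and 25.8 at E18.5 (22.2 to 29.8). FOXP1 reached 14.8 there at E15.5 (12.3 to 17.7) and 4.97 at E18.5 (3.48 to 6.91), and TCF7L2 reached 6.61 (5.10 to 8.43) and 5.80 (4.36 to 7.57). The order of the 3 regulators cannot be read from these values, since antibody and depth differ between lists. The other 8 members of this set had ARID1B fold enrichments between 17.0 and 19.3 at E15.5, with intervals that overlapped throughout.

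These 9 members lay in introns of Ebf1, Aff3, Pard3 (a cell polarity gene), Col27a1 (a collagen gene), and Tll2, or between genes. The member assigned to Pcdh18, a protocadherin, was 746 kb from its TSS, and the one assigned to Znrf4 was 2.58 kb away. Each of the 9 overlapped a peak of FOXP1 and of TCF7L2 at E15.5 and of ARID1B and TCF7L2 at E18.5. In the highest of 10 equal groups of distal peaks by height, 98.3% and 66.2% of non-members overlapped FOXP1 and TCF7L2 at E15.5. At E18.5 the shares in that group were 100% for ARID1B, 80.3% for TCF7L2, and 46.3% for FOXP1. At the region 211 kb from Etv1, an ETS transcription factor gene, the FOXP1 list at E18.5 held no peak, and the other 8 had one. The plot of the highest members shows these values with their counting error.

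**Figure D1:**
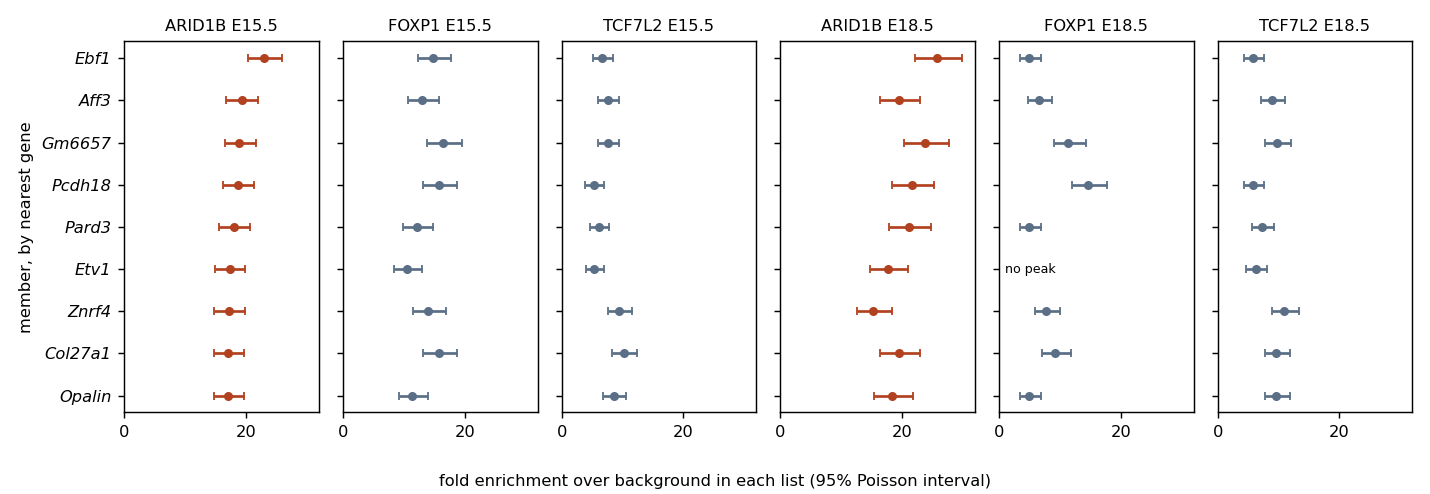
Fold enrichment (x axis, over the background of each list) of 9 of the 10 highest members, named by the nearest gene, in the 6 peak lists. Points are the strongest overlapping peak and bars its 95% Poisson interval. ARID1B values lie between 15.3 and 25.8 at both stages, and only the region near Etv1 lacks a peak, of FOXP1 at E18.5.

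The consensus was concentrated at the summits of distal peaks. Windows of the same length centered 1000 bp to either side of the same summits held a match in 1.63% of cases (1.55% to 1.71%, 103504 windows), 4.19 times less often than the summit windows, a difference of 5.19 percentage points (95% Newcombe interval 4.96 to 5.42). Already at 200 bp from the summit the share was 1.89% (1.81% to 1.98%), and from 400 to 1000 bp it stayed between 1.50% and 1.66%. In proximal peaks, those that overlap the 2000 bp upstream of a TSS, 450 of 18957 summit windows held a match, 2.37% (2.17% to 2.60%) against 1.45% (1.34% to 1.58%) in their flanks. Across chromosomes the share of distal peaks that were members ran from 6.15% on chromosome 2 to 7.94% on chromosome 7.

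Within the window, which the rule leaves free, matches lay toward the summit. Of 3618 matches, 1403 had their center within 25 bp of the summit, 38.8% (37.2% to 40.4%), where 26.7% of the possible positions lie. In the flanking windows the same central stretch held 28.3% of the matches (26.2% to 30.5%). The median distance from the summit was 34.0 bp. The plus strand held 1828 of the matches. In the histogram of match positions the level at the edges of the window remained above that of the flanks.

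**Figure D2:**
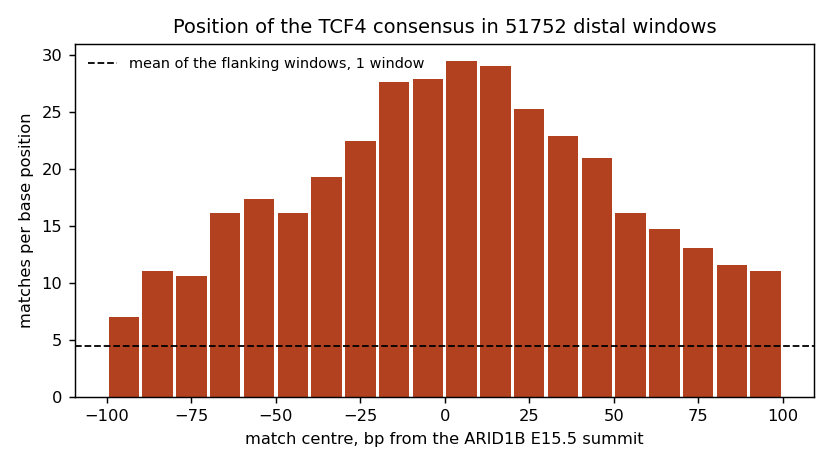
Matches to the consensus per base position (y axis) in 10 bp bins of the distance between match center and summit (x axis, bp) over all 51752 distal windows. The counts rise from 7 to 11 matches per position in the outer bins to 29.5 just right of the summit, and the dashed line marks the 4.48 matches per position of the flanking windows, taken per window.

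The words allowed by the consensus were not equally represented at summits. The word GCCATCTGTT, which is also the NeuroD1 consensus of the same motif list, occurred 435 times at summits and 68 times in the flanking windows, of which there are 2 per peak, a ratio per window of 12.8 (exact 95% interval 9.89 to 16.8). At the other end, CACATCTGTA occurred 21 times against 140, a ratio of 0.300 (0.180 to 0.477), the lowest of all 256 words made of the core and its flanking bases. Of the 24 words of the consensus, 18 had an interval wholly above 1 and 3 wholly below it. Words outside the consensus were concentrated too. The NeuroG2 consensus ACCATCTGTT had the highest ratio of all, 14.9 (11.1 to 20.5), and it is not a member word because the consensus does not allow A at its start.

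Members also differed by the bases before the core. Matches beginning with GC made 1749 members, and 224 members had only matches beginning with CA. The median ARID1B fold enrichment at E15.5 was 4.46 (4.37 to 4.55) in the former and 3.48 (3.30 to 3.57) in the latter, with 3.66 in the distal peaks without the consensus. Central position followed the same order, with 41.6% of the GC matches (39.3% to 43.9%) and 31.6% of the CA matches (26.1% to 37.8%) within 25 bp of the summit. An ARID1B peak at E18.5 was present at 85.5% of the GC members and 69.6% of the CA members, with 75.0% over all distal peaks, a difference of 15.8 points (9.93 to 22.3). For FOXP1 at E15.5 the shares were 60.6% and 46.4%, a difference of 14.2 points (7.24 to 21.0), and with 61.4% over all distal peaks the GC members were close to the background and the CA members below it. The GC members also had the higher share for TCF7L2 at E15.5, with 25.5% and 18.3% (interval of the difference 1.27 to 12.2) and 26.3% over all distal peaks, and for FOXP1 at E18.5, with 14.5% and 8.93% (5.59 points, 0.865 to 9.12) and 16.4% over all. For TCF7L2 at E18.5 the shares were 41.5% and 36.6%, with 42.3% over all, and the interval of that difference included 0 (-1.97 to 11.4). These groupings were made after the values of the words had been seen, and the part that peak height has in the overlaps was not tested for them.

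Other E-boxes were compared over all distal peaks, members or not. The core CATCTG was present in 34.4% of summit windows (34.0% to 34.8%) and 15.3% of flanking windows, a ratio of 2.26. CAGCTG, an E-box bound by many E protein dimers, had a ratio of 2.35 and CATATG 1.98, while the remaining 7 cores lay between 0.979 and 1.24. Members held CAGCTG less often than the other distal peaks, in 16.5% against 21.3% of windows, a difference of -4.83 points (-6.07 to -3.52). CATATG was at 10.0% against 11.4% (-1.44 points, -2.43 to -0.367) and CACCTG at 11.6% against 13.2% (-1.55 points, -2.61 to -0.411). For the other 6 cores the interval of the difference included 0.

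More than 1 match was rare. The window held 2 or more in 87 members (2.47%), among them 1 with 3 and 1 with 4 matches. Their median fold enrichment was 4.37 (4.10 to 5.35), which overlaps the 4.10 (4.10 to 4.19) of members with 1 match. In the 85 members with exactly 2, the matches lay 43.0 bp apart in the median (8 to 172 bp), 47 pairs on the same strand and 38 on opposite strands. The window with 4 matches and the highest window with 2 are printed whole, on the plus strand, to show how differently several matches arise.
Rps6kc1, chr1:190872317-190872516 (+): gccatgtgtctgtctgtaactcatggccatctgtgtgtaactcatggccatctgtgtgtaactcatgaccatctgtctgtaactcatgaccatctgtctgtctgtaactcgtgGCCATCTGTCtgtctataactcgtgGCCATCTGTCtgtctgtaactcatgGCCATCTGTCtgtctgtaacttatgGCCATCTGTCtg
Asap1, chr15:64429627-64429826 (+): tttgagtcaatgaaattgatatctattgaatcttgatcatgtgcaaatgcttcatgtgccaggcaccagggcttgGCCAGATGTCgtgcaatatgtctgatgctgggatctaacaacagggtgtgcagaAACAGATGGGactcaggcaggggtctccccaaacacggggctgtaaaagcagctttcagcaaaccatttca

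The Rps6kc1 window, in an intron of that kinase-like gene, repeats a unit that carries the match, and 66.0% of its bases are soft-masked as repeat in the reference. Its ARID1B fold enrichment was 5.26 at E15.5 (4.02 to 6.77) and 3.51 at E18.5. FOXP1 had no peak there at either stage. The Asap1 window has no masked base and 2 different words on the same strand. It reached 13.8 at E15.5 (11.7 to 16.1) and 14.7 at E18.5. Over all members 310 matches (8.57%) fell in masked sequence, and masked bases made up 10.5% of member windows and 10.6% of the other distal windows.

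Members were higher ARID1B peaks than other distal peaks. Their median fold enrichment at E15.5 was 4.19 (order-statistic interval 4.10 to 4.19, quartiles 3.39 and 5.81) against 3.66 (3.66 to 3.66, quartiles 3.13 and 4.73), and 62.8% of members (61.1% to 64.3%) lay above the median of the others. The median -log10 p was 14.1 against 10.9. When the distal peaks were put in order of height and split into 10 groups of equal size, the share with the consensus went from 3.67% (3.19% to 4.22%) in the lowest to 12.2% (11.3% to 13.1%) in the highest. Even the lowest group was above the 1.63% of the flanks. Peak width differed little, with medians of 434 and 417 bp, and the windows had 46.8% G+C in members (SD 7.17) and 47.8% in the others (SD 8.22).

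**Figure D3:**
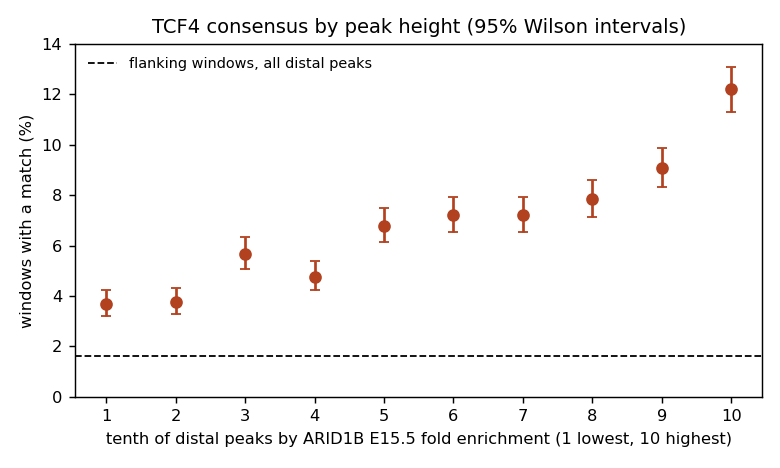
Share of 200 bp summit windows with the consensus (y axis, %) in 10 equal groups of the 51752 distal peaks ordered by ARID1B E15.5 fold enrichment (x axis), with 95% Wilson intervals. The share is 3.67% in the lowest group and 12.2% in the highest, and the dashed line marks the 1.63% of the flanking windows.

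ARID1B at E18.5 gave a list that the rule did not use. Of the members, 2907 overlapped an ARID1B peak at E18.5, 82.4% (81.1% to 83.6%) against 74.5% of the other distal peaks, with 75.0% over all distal peaks. The difference of 7.93 points (6.58 to 9.22) went with peak height. Averaged over quartiles of E15.5 fold enrichment, it was 0.472 points (-0.625 to 1.57), and in the highest quartile 99.9% of both classes had an E18.5 peak. Where both stages had a peak, the median log2 ratio of E18.5 to E15.5 fold enrichment was 0.10 in members (0.09 to 0.11) and 0.12 in the others (0.12 to 0.12), each list being scaled to its own background.

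The summits of the stages lay closer together in members. With an E18.5 ARID1B peak present, the distance between both ARID1B summits had a median of 39.0 bp (37.0 to 41.0) in members and 58 bp (57 to 59) in the others. It was smaller in members in every quartile of height, by 39.0 bp in the lowest and 5 bp in the highest. An E18.5 summit within 100 bp of the E15.5 summit was more frequent in members by 17.6 points (16.0 to 19.2), and by 9.29 points (7.89 to 10.7) over quartiles of height.

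Distal ARID1B peaks called at E18.5 had the consensus at their own summits in 6.71% of cases (6.49% to 6.94%, 49110 peaks) and in 1.60% of their flanks. The share was 7.14% (6.90% to 7.40%) where a peak of E15.5 overlapped and 4.59% (4.16% to 5.06%) in the 8308 peaks seen only at E18.5. Where both stages had a peak, the windows often covered the same sequence, so the first of these shares is not independent of the rule. The 12935 distal peaks seen only at E15.5 had 4.80% (4.45% to 5.18%). Peaks of either stage alone had a lower share than shared ones, yet more than their flanks, at 1.63% and 1.74%. The heights of these peaks were not matched, and within height quartiles the E18.5 overlap of members and other distal peaks differed by less than counting error, as given above.

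At E15.5, 2074 members overlapped a FOXP1 peak, 58.8% (57.2% to 60.4%) against 61.6% of the other distal peaks, where all distal peaks had 61.4%. The difference was -2.78 points (-4.47 to -1.11). Since higher ARID1B peaks overlap more lists and members were higher, the comparison was made within quartiles of height. There it was -9.58 points on average (-11.0 to -8.16). In the lowest quartile 24.2% of members (21.1% to 27.7%) and 40.7% of the others (39.9% to 41.5%) had a FOXP1 peak, and in the highest 90.7% and 91.8%, a difference whose interval includes 0 (-2.86 to 0.480).

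TCF7L2 at E15.5 overlapped 889 members, 25.2% (23.8% to 26.7%) against 26.4%, with a background of 26.3%. The pooled difference of -1.19 points (-2.65 to 0.318) was within counting error, and within quartiles of height it was -6.01 points (-7.37 to -4.64). All 3 regulators met at 855 members, 24.2% against 25.2% of the others, with 25.2% over all distal peaks, a difference of -1.01 points (-2.45 to 0.480) and of -6.04 points (-7.38 to -4.70) within height quartiles. ARID1B was alone among the 3 at 40.2% of members and 37.3% of the others (2.96 points, 1.29 to 4.64). TCF7L2 without FOXP1 was rare in both, at 0.964% and 1.14%.

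The E18.5 lists showed the same order. FOXP1 at E18.5 overlapped 486 members, 13.8% (12.7% to 15%) against 16.6%, with 16.4% over all distal peaks, and the difference of -2.86 points (-4.01 to -1.64) was -6.07 points (-7.22 to -4.91) within quartiles of height. TCF7L2 at E18.5 overlapped 1427 members, 40.4% (38.8% to 42.1%) against 42.4%, with a background of 42.3%. Its difference was -1.99 points (-3.66 to -0.302) in the pool, -6.88 points (-8.42 to -5.35) within height quartiles, and 0.0814 points (-1.49 to 1.65) within quartiles of the G+C content of the window. An ARID1B peak at both stages and none of another list was found at 24% of members and 18.8% of the others, 5.13 points more (3.71 to 6.61). This difference and that of ARID1B alone at E15.5 rest on the 1-base overlap. The part that peak height has in them was not tested.

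**Figure D4:**
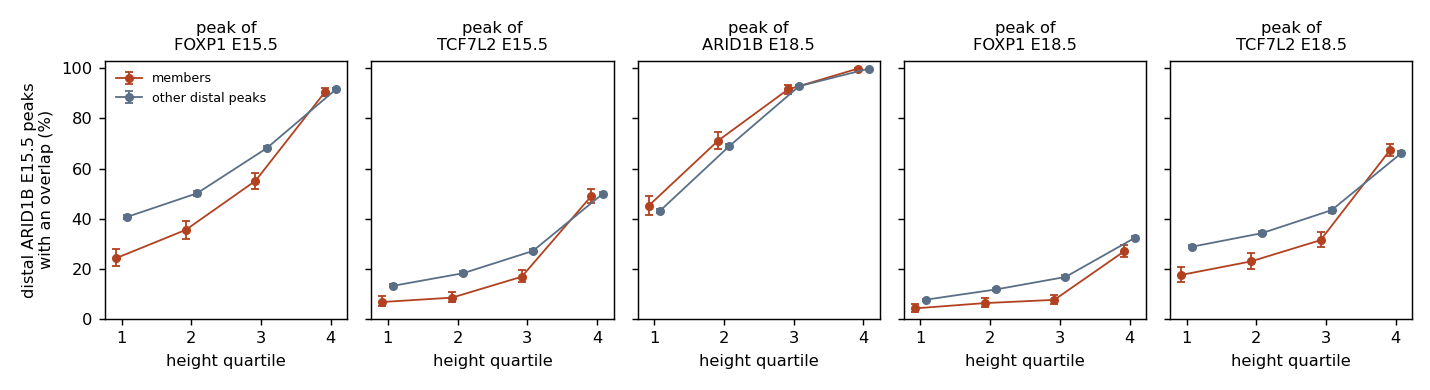
Share of distal ARID1B E15.5 peaks that overlap a peak of each other list by at least 1 base (y axis, %) in quartiles of ARID1B E15.5 fold enrichment (x axis, 1 lowest), for members and other distal peaks, with 95% Wilson intervals. For FOXP1 at E15.5 the lowest quartile has 24.2% of members against 40.7% of the others, and for ARID1B at E18.5 both classes reach 99.9% in the highest.

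What counts as an overlap mattered for FOXP1 and TCF7L2. When the summit of the other list had to lie within 100 bp of the ARID1B summit, FOXP1 at E15.5 was found more often in members, by 7.48 points (5.79 to 9.18), and within height quartiles the difference was 0.325 points (-1.15 to 1.80). For TCF7L2 at E15.5 these values were 2.58 points (1.32 to 3.92) and -1.25 points (-2.46 to -0.0401). For both regulators at E15.5 the pooled difference thus had the opposite sign to that of the 1-base overlap, and so did that of TCF7L2 at E18.5, with 4.02 points (2.54 to 5.55) for close summits and -1.99 for the 1-base overlap. At E18.5, within height quartiles, close summits of FOXP1 were less frequent in members by 2.80 points (difference -2.80, -3.79 to -1.82), and for TCF7L2 the difference was -0.329 points (-1.74 to 1.09). Where a FOXP1 peak of E15.5 overlapped, its summit lay 52.0 bp (50.0 to 55.0) from the ARID1B summit in members and 78.0 bp (77.0 to 79.0) in the others, and for TCF7L2 57 and 84 bp. Within quartiles of height these medians were lower in members by 3 to 35.5 bp for FOXP1 and by 3.50 to 24.5 bp for TCF7L2 at E15.5. In the E18.5 lists this held in the lower 3 quartiles only, and in the highest the medians were 49.0 bp in both classes for FOXP1 and 55.0 against 52.0 bp for TCF7L2. The height of the overlapping peak was nearly the same in both classes, with medians of 4.30 and 4.18 for FOXP1 and of 4.00 and 4.00 for TCF7L2.

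The rule places the consensus within the window around an ARID1B E15.5 summit, so its distances to the summits of the lists are given as a description only. The median was 33.0 bp to the E15.5 ARID1B summit, 44.0 bp to that of E18.5, 58.0 bp to FOXP1 and 62.0 bp to TCF7L2 at E15.5. The share with the consensus was also taken at the summits of FOXP1 and TCF7L2 themselves, which the rule did not use. Where an ARID1B peak overlapped, however, these windows often covered sequence that the rule had searched, because the summits lay close together. The shares with ARID1B therefore count many matches of members again and are not independent of the rule. How many they count again was not tested. Distal FOXP1 peaks of E15.5 had the consensus at 6.01% of their summits (5.75% to 6.27%, 31789 peaks) where an ARID1B peak overlapped and at 2.29% (2.04% to 2.57%, 12356 peaks) where none did, against 1.73% and 1.78% in their flanks. Distal TCF7L2 peaks had 5.51% (5.15% to 5.89%) with ARID1B and 1.42% (1.00% to 2.01%, 31 of 2180) without, the latter below the 2.16% of its flanks (-0.734 points, -1.37 to -0.0268). The heights of these peaks were not matched.

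**Figure D5:**
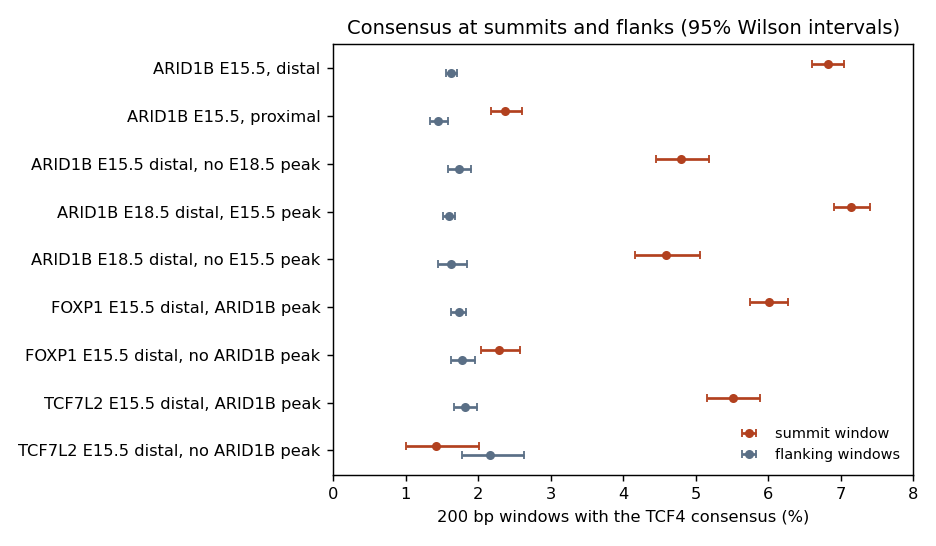
Share of 200 bp windows with the consensus (x axis, %) at summits and in flanking windows 1000 bp away for 9 kinds of peak (y axis), with 95% Wilson intervals. Summit shares run from 1.42% in distal TCF7L2 peaks without ARID1B to 7.14% in distal E18.5 ARID1B peaks shared with E15.5, while all flank shares lie between 1.45% and 2.16%.

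Motifs of other families were looked up in the same windows. The NF1 half-site was found in 5.02% of member windows (4.34% to 5.79%) and 5.71% of the others, and the SOX3 motif in 3.74% and 3.81%. The LHX2 motif, bound by a homeobox regulator of cortical progenitors, was less frequent in members, at 4.05% (3.45% to 4.76%) against 5.46% (5.26% to 5.67%). The FOXP1 motif was at 1.28% (0.955% to 1.70%) and 1.21%, a difference of 0.0686 points (-0.268 to 0.506), and the TCF7L2 motif was present in 1 member window and 61 others, 0.0283% and 0.126%, a difference whose interval includes 0 (-0.141 to 0.0368). These motifs were picked with earlier results known, and a missing match says only that the letters are not in the window.

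Members lay somewhat farther from the nearest protein-coding TSS than other distal peaks, while the difference in the share inside genes was within counting error. The summit lay inside a protein-coding gene for 1784 members, 50.6% (48.9% to 52.2%) against 52.2%, with 52.1% over all distal peaks (difference -1.60 points, -3.31 to 0.105). Introns held 48.3%, coding exons 0.964%, and untranslated regions 1.33% of members, where the other distal peaks had 48.1%, 2.10%, and 1.94%. The lower share in coding exons exceeded counting error (-1.14 points, -1.44 to -0.737). The nearest protein-coding TSS was 40.8 kb away in the median (38.2 to 43.9) in members and 37.4 kb (36.6 to 38.1) in the others. More than 10000 bp from such a TSS lay 79.0% of members and 75.9% of the others (3.09 points, 1.67 to 4.46), and more than 100000 bp away 31.0% and 29.2% (1.84 points, 0.285 to 3.44).

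The nearest TSS was used to describe which genes lie beside members, without any claim that a region acts on that gene. Members were nearest to 2377 genes, 1717 of them with 1 member only. The genes with the most were Tenm2 with 13 of its 108 distal peaks, Celf2 with 11 of 108, and Tenm4 with 11 of 122, named after the counts were seen. Against the 6.82% over all distal peaks, these are 12% (7.17% to 19.5%), 10.2% (5.78% to 17.3%), and 9.02% (5.11% to 15.4%), and the intervals of Celf2 and Tenm4 include the background. No interval allows for the choice of the highest counts among 9063 genes with a distal peak, so that of Tenm2 does not set it apart. Tenm2 and Tenm4 encode teneurins, adhesion proteins of neurons, and Celf2 an RNA-binding protein. Of 125 genes in 11 lists of cortical cell types and pathways, 51 were nearest to a member. They took 99 members, 2.81% (2.31% to 3.40%) against 3.74% of the others (3.58% to 3.92%), with 3.68% over all distal peaks, a difference of -0.937 points (-1.46 to -0.316). The interval included 0 in windows of 100 bp (-1.30 to 0.182), in peaks with -log10 p of at least 15 (-1.48 to 0.346), and for the 6-base core alone (-0.626 to 0.0490).

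For the members beside genes of these lists, the highest with their matches are shown, in the same form as above, to give the letters at known cortical loci.
Neurod2, chr11:98334429-98334478 (-): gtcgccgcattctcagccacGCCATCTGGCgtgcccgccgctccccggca
Id4, chr13:48027953-48028002 (+): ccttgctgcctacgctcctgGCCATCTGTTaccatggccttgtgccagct
Hes5, chr4:154958473-154958522 (+): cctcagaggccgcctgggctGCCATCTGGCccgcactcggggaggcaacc
Btg2, chr1:134063334-134063383 (-): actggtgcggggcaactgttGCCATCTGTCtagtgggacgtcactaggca
Bcl11a, chr11:24631782-24631831 (-): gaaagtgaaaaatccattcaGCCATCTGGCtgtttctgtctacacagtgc
Rorb, chr19:19535359-19535408 (+): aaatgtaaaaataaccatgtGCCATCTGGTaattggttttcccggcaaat
Reln, chr5:21947680-21947729 (+): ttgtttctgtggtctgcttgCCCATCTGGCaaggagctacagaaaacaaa
Sp8, chr12:118704981-118705030 (-): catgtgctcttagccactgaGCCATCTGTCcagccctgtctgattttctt

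The 16 bHLH and proneural genes, which include the candidates for binding such sites, had 8 members near 6 genes, 0.227% of members and 0.247% of the others. The member 6.89 kb from Olig2, a bHLH gene of the oligodendrocyte lineage, had ARID1B fold enrichments of 9.35 (7.66 to 11.3) at E15.5 and 10.9 at E18.5. Near Neurod2, a neuronal differentiation factor, the member 4.75 kb from the TSS reached 9.08 (7.42 to 11) and 10.5. The E protein and Id genes had 5 members among 183 distal peaks, 2.73% where all distal peaks had 6.82%, near Tcf4 and Id4 only. They took 0.142% of members and 0.369% of the others (-0.227 points, -0.327 to -0.0312). The Id4 region, 233 kb from the TSS, reached 7.13 (5.66 to 8.86) at E15.5 and 7.57 at E18.5. It had no overlapping FOXP1 peak at the later stage, where 16.4% of all distal peaks had one.

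Radial glia genes, which mark the neural stem cells of the cortex, had 10 members near 8 genes, 0.283% of members and 0.429% of the others (-0.146 points, -0.289 to 0.0979). The member 2.42 kb from Hes5, a Notch target, was at 8.55 (6.94 to 10.4) for ARID1B and at 9.22 (7.41 to 11.3) for TCF7L2 at E15.5. Intermediate progenitor genes had 6 members, 0.170% against 0.124%, the highest near Btg2, an antiproliferative gene, at 7.66 (6.14 to 9.45). Both regions had peaks in all 6 lists.

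Deep-layer and subplate genes had 23 members, 0.652% against 0.823% of the others. The highest was 489 kb from Bcl11a, a zinc finger gene of deep-layer neurons, at 14.8 (12.6 to 17.2), and FOXP1 had no peak there at E18.5. A FOXP1 peak at E18.5 was present at 16.4% of all distal peaks and 46.3% of non-members in the highest of the 10 height groups. That list was also the shallowest, with 26.3 M reads in its smaller library. Upper-layer genes had 11 members, 0.312% against 0.688%, a difference of -0.377 points (-0.535 to -0.121). The highest of them, 424 kb from the upper-layer gene Rorb, was at 8.64 (7.02 to 10.5) and had no TCF7L2 peak at either stage. Over all distal peaks 26.3% had a TCF7L2 peak at E15.5 and 42.3% at E18.5. Among non-members in the highest height group these shares were 66.2% and 80.3%.

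Genes of neuronal migration and the Reelin pathway had 29 members near 12 genes, the most of the 11 lists, at 0.822% against 0.842% of the others. In an intron of Reln, which encodes the secreted Reelin protein, a member 15 kb from the TSS reached 12.6 (10.7 to 14.9) at E15.5 and 14.7 at E18.5. It had a peak in every list. Interneuron genes had 8 members, 0.227% against 0.238%, the highest 141 kb from Sp8, at 8.37 (6.78 to 10.2). Markers of other cell types lay near few distal peaks of either class, with 2 members for the oligodendrocyte lineage (0.0567% against 0.0560% of the others) and 3 for endothelium (0.0850% against 0.0767%). Microglia genes had 0 members and 9 other distal peaks, and a count of 0, taken as at most 3 members, allows a share of up to 0.0850% (upper Wilson bound 0.109%). Of the 102 ASD-associated genes listed by the study, 28 were nearest to a member, and these took 59 members, 1.67% against 2.09% (-0.414 points, -0.810 to 0.0807).

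Some members were found in no other list. They numbered 12.7% of members and 14.9% of the other distal peaks (-2.22 points, -3.32 to -1.04), and 9.04% and 10.8% had a peak in all 5 other lists. The highest member without any other peak lay in an intron of 5730522E02Rik, at a fold enrichment of 4.64 (3.48 to 6.07, 51 reads). Its match, one of those beginning with CA, is shown for comparison with the highest members.
5730522E02Rik, chr11:26108805-26108854 (+): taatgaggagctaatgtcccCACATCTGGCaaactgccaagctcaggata

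At the edges of the rule, a member near Micu2 (fold enrichment 4.46) ended 1 bp from a promoter region, and a peak near Slc48a1 (3.21) with a match was left out for 2 bp of overlap. A member near Cfap61 (10.2) had its match centered 95 bp from the summit, and a peak near Mdga1 (7.13) with a match at 96 bp was not a member.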

How the data were processed

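Peak lists from ChIP-seq were used, 1 list, taken to be merged over replicates, for each of 3 regulators and 2 stages of mouse cortex, and groups came from the sample labels. According to the methods and the submitters' processing notes, the authors aligned reads with BWA 0.7.15 to mm10, used SAMtools to drop those of low mapping quality, and ran MACS2 2.2.7 in narrow mode against input, with a constant background and reads extended to 200 bp. The deposited lists hold the fold enrichment, a ratio, the −log10 of the p-value and of the q-value, and a score by the authors, which was not used. How duplicate reads were treated is not stated there.

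Depth was recovered from the lists. One background per list tied fold enrichment to p-value for 100% of the distinct pairs with -log10 p under 150 (tolerance 0.01), which puts the smaller library at 26.3 M reads in the FOXP1 list of E18.5 and between 57.3 and 80.7 M elsewhere, taking a genome size of 1870 Mb. Poisson intervals on fold enrichment rest on these reads.

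Sequence came from GRCm38.p6 of RefSeq. TSSs and genes came from GENCODE vM21, whereas the study's methods name a later release. The 733 ARID1B peaks outside chromosomes 1 to 19 were left out. Shares have 95% Wilson, differences 95% Newcombe, medians order-statistic, and ratios of word counts exact conditional intervals. Differences over quartiles were weighted by members. Python 3.11.15 with numpy 2.4.6, pandas 2.3.3, and scipy 1.17.1 was used, and the search and intervals were tested on simulated data. Regions named were the 10 highest members, up to 3 per gene list, up to 4 with the most matches, the highest found in no other list, and those at the edges of the rule. The members, lists, and tests were chosen with earlier results of these data known. Items withheld from this report, among them 1 of the 10 highest members, are not reported here. Alternative windows, thresholds, promoter definitions, repeats, the core alone, sex chromosomes, overlap rules, and strata were tried.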

Additional observations from a re-analysis of the deposited data

How the results depend on the processing

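Of 109 alternative values of 11 results, 65 stayed within the 95% interval of the value reported, and 40 were counted as leaving it with no change of a called direction. The other 4 had the opposite sign to a called direction, meaning one whose reported interval excludes 0. Of these, 0.325 for FOXP1 at E15.5 with close summits and height quartiles had an interval including 0 (-1.15 to 1.80). So had 0.0814 for TCF7L2 at E18.5 over G+C quartiles (-1.49 to 1.65). The 40 include sign changes of uncalled differences, and a height value of 0.444 that equals its printed bound. No paired analysis was possible because there is 1 list for each regulator and stage, taken to merge its replicates. For the same reason no library could be left out, and the spread between animals is unknown. Unless said otherwise, the cause of a change was not tested.

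The excess of consensus windows at summits over flanks, 5.19 points as reported, was 3.47 and 5.91 in windows of 100 and 400 bp, 7.95 in peaks with -log10 p of at least 15, 5.43 with 2000 bp on either side of a TSS excluded, 4.92 outside repeats, and 19.2 for the 6-base core. The share of matches within 25 bp of the summit was 62.5% and 28.2% in these windows, which differ in the positions they offer, 40.9% in the stricter peaks, and 35.2% for the core. The difference in median fold enrichment, 0.533 as reported, was 0.622 and 0.356 in windows of 100 and 400 bp and 0.444 in the stricter peaks, where the low peaks are missing.

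For an ARID1B peak at E18.5, the difference was 5.87 points in windows of 400 bp, 0.140 in the stricter peaks, 11.1 with an overlap of at least 0.5 of the peak's length, 17.6 with summits within 100 bp, 0.472 over height quartiles, and 9.29 with both of the last. With summits within 100 bp the difference became 7.48 points for FOXP1 and 2.58 for TCF7L2 at E15.5, -0.296 and 4.02 in the same order at E18.5, and 4.10 for all 3 regulators. Adding height quartiles, a setting chosen after seeing the data, made it 0.325 for FOXP1 at E15.5, -2.80 for FOXP1 at E18.5, and 0.768 for all 3. Over height quartiles alone it was -9.58 and -6.07 for FOXP1 at E15.5 and E18.5, -6.01 and -6.88 for TCF7L2, and -6.04 for all 3. Over G+C quartiles it was 0.566 and 0.0814 for TCF7L2 at E15.5 and E18.5 and 0.673 for all 3. With the core only it was -3.84 and -4.67 for TCF7L2 and -3.61 for all 3. With 2000 bp on either side of a TSS excluded it was 0.522 and -0.157 for TCF7L2 and 0.631 for all 3. In the stricter peaks FOXP1 at E18.5 differed by -5.94 points. The difference inside protein-coding genes was 0.589 in the stricter peaks and 0.173 with the wider promoter exclusion, and that for listed genes was -0.293 with the core only.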
